A study of Mus musculus with 18 samples.

Results

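The 38 genes described here encode the enzymes of cholesterol synthesis, the SREBP and LXR regulators of sterol balance with their targets, the fatty acid synthesis enzymes, and proteins that carry or store sterol. They were taken as a list of names, drawn up with earlier results of these data known, and all 38 were measured among 23102 genes. RNA came from J774, a macrophage line of mouse tumour origin, and was read on 18 Affymetrix arrays. Each of 6 groups held 3 arrays: talc, talc plus estradiol, titanium dioxide (TiO2), TiO2 plus estradiol, estradiol, and vehicle. Particles were given at 10 µg per well in 24 well plates and 17-β estradiol at 2 µg/mL, and RNA was taken after 24 h. Every group grew in the same phenol red-free medium with fetal bovine serum, and the labels name neither the vehicle nor the particle size. The line stands for macrophages only as an immortal culture without other cells. The labels do not say that the 3 samples behind a group were grown separately, so a p-value speaks only of the scatter among these samples, and that scatter may be technical.

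Cells make cholesterol from acetyl-CoA through mevalonate, isoprenoid diphosphates, squalene and lanosterol. When sterol in the endoplasmic reticulum is low, Scap escorts SREBP, the transcription factors encoded by Srebf1 and Srebf2, to the Golgi, where they are cut and released to switch on these enzymes; Insig1 and Insig2 hold Scap back when sterol is plentiful, and Insig1 is itself an SREBP target. The liver X receptors, encoded by Nr1h3 (LXR alpha) and Nr1h2 (LXR beta), work the other way: they bind oxysterols and switch on exporters such as Abca1 and Abcg1. Macrophages are known for both systems because they take up cholesterol with the particles and cells that they engulf.

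Talc-treated cells had less RNA of 5 of the 17 cholesterol synthesis enzymes, of the feedback gene Insig1 and of the lysosomal cholesterol transporter gene Npc1 than vehicle-treated cells, with the largest fall in Idi1, to 66.9% of the vehicle level. Of the 38 genes, 7 fell and 0 rose with talc against vehicle, where 4.52% of all genes fell and 3.94% rose. The 7 were Idi1, Insig1, Npc1, Tm7sf2, Pmvk, Nsdhl and Fdft1. With estradiol on both sides, talc lowered Insig1 and raised the exporter gene Abcg1, and no enzyme passed the test. For TiO2 against vehicle and for estradiol against vehicle, 0 of the 38 and 0 of all genes passed. In total RNA of a culture, fewer expressing cells and less RNA per cell cannot be told apart. Changes are log2 differences ± the standard error of a limma fit to all 18 arrays, and passing means p under 0.05 after Benjamini-Hochberg adjustment across the 23102 genes.

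Because SREBP works at promoters together with NF-Y, a factor that binds CCAAT, promoters from the RefSeq table of build GRCm38.p6 were searched on both strands over 250 bases before and 50 after each start. Entries were matched by symbol for 30 of the 38 genes, with 41 promoters in all; Fdft1, Fdps, Sqle, Npc1, Abcg1, Scd1, Scd2 and Stard4 had no entry. CCAAT was in at least 1 promoter of all 14 sterol synthesis enzymes matched, in 14 of their 17 promoters, and in 37.4% of all 32851 promoters in the table. TCACNCCAC, the core of a sterol response element, was in 1 member promoter, that of Hmgcs1, and in 1.24% of all promoters. A core with other letters is not counted, so a promoter without this match is not shown to lack a sterol response element. CACGTG, an E-box that SREBP and other factors can bind, was in promoters of Abca1, Dhcr7, Hsd17b7, Insig1, Sc5d and Scap, and in 7.15% of all. The LXR element DR4 was searched only as a direct repeat, with a choice of letters at some positions of each copy and fixed letters at the others. In that form it was in 0 member promoters and in 0.0822% of all. An element with other letters in either copy is not counted, so 0 matches does not show that a promoter lacks an LXR element. No match of one motif overlapped a match of another. A match is a run of letters and not a measured binding site.

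Below are the 250 bases before the start, 5′ to 3′ on the gene's strand, of Insig1 (chr5:28071162-28071411), Idi1 (chr13:8885356-8885605) and Tm7sf2 (chr19:6067851-6068100, minus strand), which have the smallest p in the mean of both talc comparisons among the matched enzyme and SREBP genes. Hmgcs1 (chr13:119690101-119690350) is shown because it holds the sterol response core, and Abca1 (chr4:53159896-53160145, minus strand) because it rose in that mean. The matched promoters of Nr1h3, which also rose there and with a smaller p than Abca1, hold 0 matches of the motifs searched and are not shown. Capitals mark CCAAT, which reads ATTGG on the other strand, CACGTG and TCACNCCAC.
Insig1: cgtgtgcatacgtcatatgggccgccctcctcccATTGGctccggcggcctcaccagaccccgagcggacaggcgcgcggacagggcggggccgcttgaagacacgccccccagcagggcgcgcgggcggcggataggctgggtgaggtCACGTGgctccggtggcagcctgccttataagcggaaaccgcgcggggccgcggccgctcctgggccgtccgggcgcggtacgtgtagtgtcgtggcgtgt
Idi1: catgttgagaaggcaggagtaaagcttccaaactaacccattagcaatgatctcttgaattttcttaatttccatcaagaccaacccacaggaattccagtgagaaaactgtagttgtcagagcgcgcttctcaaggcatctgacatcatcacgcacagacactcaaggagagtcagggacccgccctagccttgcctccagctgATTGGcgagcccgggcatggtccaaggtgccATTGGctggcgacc
Tm7sf2: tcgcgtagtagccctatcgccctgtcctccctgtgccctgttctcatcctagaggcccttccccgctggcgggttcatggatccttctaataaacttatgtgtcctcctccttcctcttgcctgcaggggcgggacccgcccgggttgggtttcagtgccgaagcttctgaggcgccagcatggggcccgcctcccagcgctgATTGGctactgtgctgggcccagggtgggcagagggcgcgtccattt
Hmgcs1: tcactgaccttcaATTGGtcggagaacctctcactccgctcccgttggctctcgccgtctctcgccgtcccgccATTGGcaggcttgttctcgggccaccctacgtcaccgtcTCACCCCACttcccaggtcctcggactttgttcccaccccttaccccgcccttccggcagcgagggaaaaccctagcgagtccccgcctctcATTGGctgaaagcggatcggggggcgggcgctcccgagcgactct
Abca1: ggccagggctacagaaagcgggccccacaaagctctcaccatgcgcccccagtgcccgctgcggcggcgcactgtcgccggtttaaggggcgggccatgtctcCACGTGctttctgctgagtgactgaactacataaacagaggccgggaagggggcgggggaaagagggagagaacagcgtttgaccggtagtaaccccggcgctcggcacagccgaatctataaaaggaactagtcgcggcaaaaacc

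The label of a macrophage line was checked against 8 macrophage markers, whose mean log2 intensities ran from 6.56 for Adgre1 to 12.76 for Cd68. Markers of fibroblasts, epithelium, lymphocytes and granulocytes lay between 2.98 and 5.40. Marker sets were compared by the log2 of their summed linear intensities, in which the brightest markers weigh most. This value for the macrophage markers was 14.18 to 14.23 with talc and 14.13 to 14.22 with vehicle. It was 14.22 to 14.28 with talc plus estradiol, above the 14.17 to 14.19 found both with TiO2 plus estradiol and with estradiol. That of the 4 fibroblast markers was 6.29 to 6.64 with talc and 6.55 to 6.72 with vehicle, and 6.28 to 6.50 with talc plus estradiol, below the 6.56 to 6.70 with TiO2 plus estradiol and the 6.52 to 6.86 with estradiol. The 4 epithelial markers summed to 6.76 to 6.96 with talc, above the 6.59 to 6.65 with TiO2, and overlapped vehicle at 6.64 to 6.90. With talc plus estradiol they summed to 6.58 to 6.77, against 6.77 to 6.97 with TiO2 plus estradiol and 6.69 to 6.75 with estradiol. The 3 lymphocyte markers summed to 5.15 to 5.24 with talc plus estradiol, below the 5.34 to 5.43 with TiO2 plus estradiol. The part of these marker shifts in the results below was not tested. Array medians were 45.6 to 48.0 intensity units. Array numbers run through the groups in order, and an order effect and a group effect cannot be told apart.

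In the mevalonate arm, all 6 genes had a log2 change below 0 with talc against vehicle, and 2 of them fell. Idi1, the isomerase that interconverts the isoprenoid building blocks, fell most. Idi1 had log2 intensities of 7.07, 7.12 and 7.25 with talc, against 7.97, 7.48 and 7.73 with vehicle. In the presence of estradiol, they were 7.19, 7.25 and 7.33 with talc plus estradiol, against 7.57, 7.72 and 7.61 with estradiol. Every talc array lay below every array of its control in both arms. The log2 change of Idi1 was -0.58 ± 0.14 (adjusted p = 0.013) against vehicle, -0.38 ± 0.14 (adjusted p = 0.13) against estradiol, and -0.48 ± 0.10 (adjusted p = 0.0025) for the mean of both. Idi1 stood at 7.61, 7.73 and 7.78 with TiO2 plus estradiol, against 7.26, 7.61 and 7.84 with TiO2. Those arrays spread over the range of the controls, apart from TiO2 replicate 1, which lay among the talc arrays. The call against vehicle was lost without talc replicate 1 (adjusted p = 0.058) or vehicle replicate 1 (adjusted p = 0.076), and the gene has only 2 probe sets.

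Pmvk, the phosphomevalonate kinase, fell too. Pmvk had log2 intensities of 7.76, 7.67 and 7.76 with talc, against 8.08, 8.06 and 8.12 with vehicle. Pmvk stood at 8.03, 7.94 and 8.12 with talc plus estradiol, against 7.98, 7.90 and 8.20 with estradiol. Pmvk stood at 7.78, 8.02 and 8.11 with TiO2 plus estradiol, against 8.29, 8.13 and 8.14 with TiO2. Talc arrays were tightly grouped below vehicle, whereas the arrays with estradiol overlapped. The change was -0.36 ± 0.11 (adjusted p = 0.048) without estradiol and 0.00 ± 0.11 (adjusted p = 0.99) with it, and the first was lost on leaving out any of 13 of the 18 arrays in turn (adjusted p up to 0.14). Mvk, the mevalonate kinase, and Fdps, which builds farnesyl diphosphate, passed only against TiO2 and are given there. Hmgcs1, which makes HMG-CoA, had changes of -0.17 ± 0.11 (adjusted p = 0.43) and -0.27 ± 0.11 (adjusted p = 0.17), with all talc arrays lower in both arms, and did not pass. Mvd, the diphosphomevalonate decarboxylase, did not pass either, with -0.07 ± 0.12 (adjusted p = 0.83) and 0.24 ± 0.12 (adjusted p = 0.28).

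**Figure D1:**
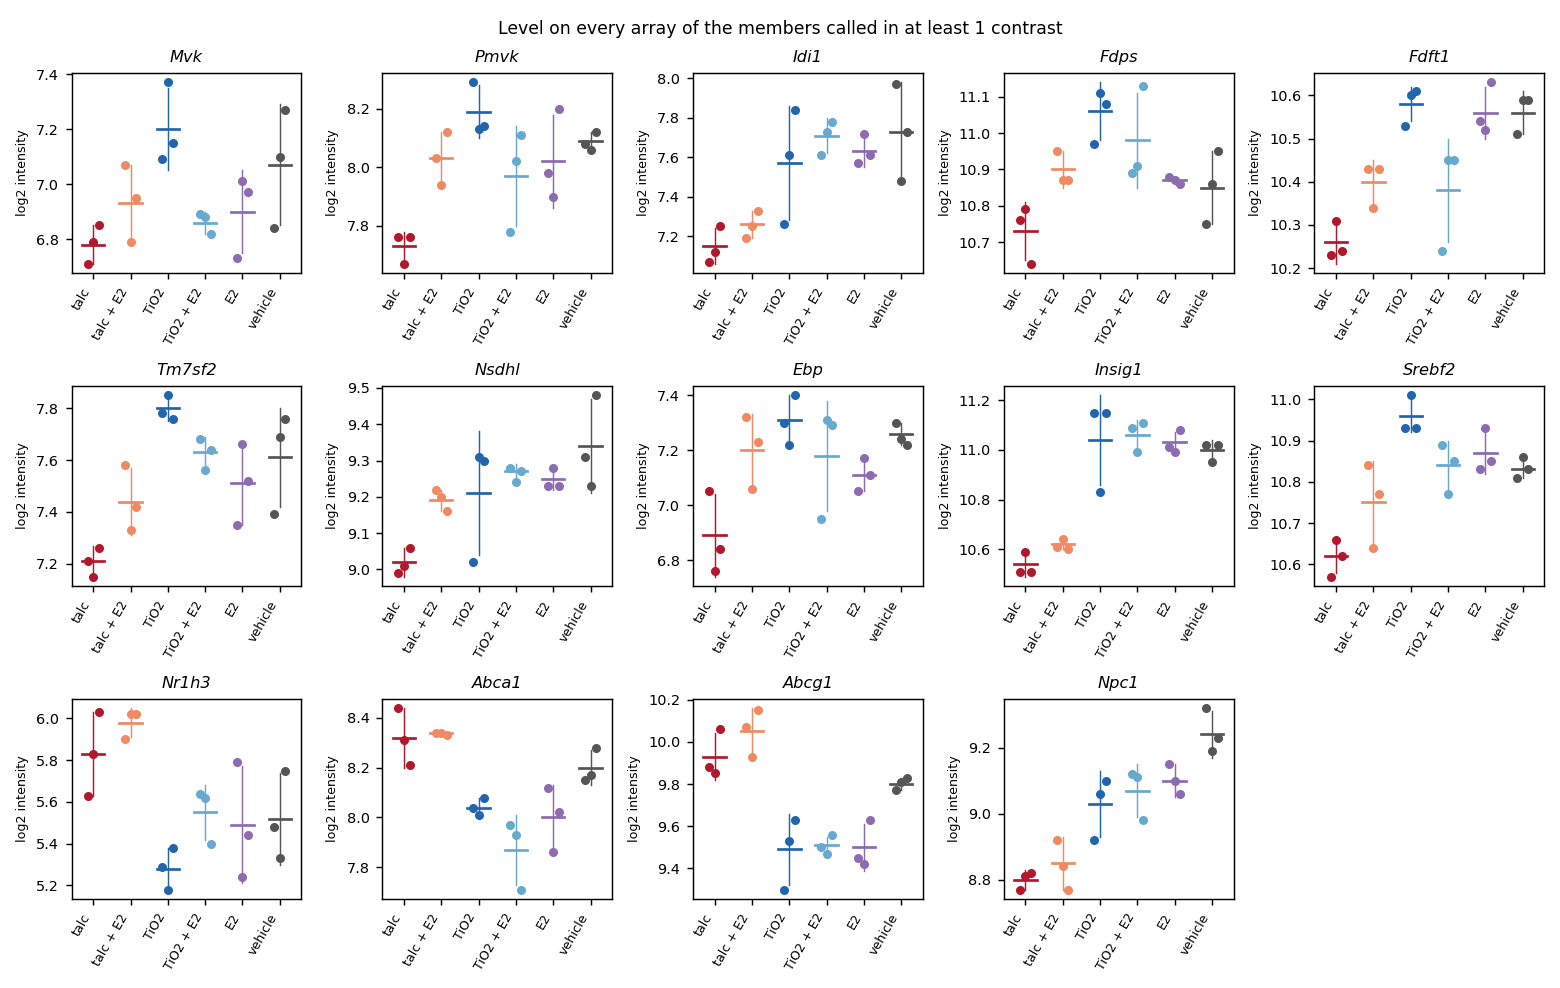
Log2 intensity of the members that passed at least 1 comparison, by group. Each point is an array, horizontal bars are means of 3 and vertical bars the SD; E2 is estradiol. For Insig1 the 6 arrays with talc lie between 10.51 and 10.64, below all 12 others at 10.83 to 11.15.

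From squalene to cholesterol, 9 of 11 genes had a log2 change below 0 with talc against vehicle, and Tm7sf2, Nsdhl and Fdft1 fell. Tm7sf2 is a sterol reductase. Tm7sf2 had log2 intensities of 7.21, 7.15 and 7.26 with talc, against 7.39, 7.69 and 7.76 with vehicle. Tm7sf2 stood at 7.58, 7.33 and 7.42 with talc plus estradiol, against 7.35, 7.66 and 7.52 with estradiol. Tm7sf2 stood at 7.68, 7.56 and 7.64 with TiO2 plus estradiol, against 7.78, 7.85 and 7.76 with TiO2. The talc arrays all lay under vehicle, while those with estradiol overlapped. The change was -0.40 ± 0.11 (adjusted p = 0.032) against vehicle and -0.07 ± 0.11 (adjusted p = 0.82) in the estradiol arm, with 16 of 17 probe sets lower in the first. It did not pass after leaving out any 1 talc array, vehicle replicate 2 or vehicle replicate 3 (adjusted p 0.066 to 0.14).

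Nsdhl is a dehydrogenase that helps strip methyl groups from sterols. Its change was -0.32 ± 0.10 (adjusted p = 0.049) against vehicle and -0.05 ± 0.10 (adjusted p = 0.84) in the estradiol arm. Nsdhl had log2 intensities of 8.99, 9.01 and 9.06 with talc, against 9.31, 9.23 and 9.48 with vehicle. Nsdhl stood at 9.22, 9.20 and 9.16 with talc plus estradiol, against 9.23, 9.28 and 9.23 with estradiol. Nsdhl stood at 9.28, 9.24 and 9.27 with TiO2 plus estradiol, against 9.02, 9.31 and 9.30 with TiO2. In both arms the talc arrays were the lower ones. The call against vehicle was lost without any 1 of 16 of the 18 arrays. Fdft1, squalene synthase, is the committed step towards sterols. Fdft1 had log2 intensities of 10.23, 10.31 and 10.24 with talc, against 10.51, 10.59 and 10.59 with vehicle. Fdft1 stood at 10.43, 10.34 and 10.43 with talc plus estradiol, against 10.54, 10.52 and 10.63 with estradiol. Fdft1 stood at 10.24, 10.45 and 10.45 with TiO2 plus estradiol, against 10.53, 10.60 and 10.61 with TiO2. The talc arrays lay below their controls in both arms without overlap. The change of Fdft1 was -0.30 ± 0.09 (adjusted p = 0.041) and -0.16 ± 0.09 (adjusted p = 0.33), and -0.23 ± 0.06 (adjusted p = 0.015) for the mean of both, which passed with each array left out. That mean did not pass with the brightest probe set (-0.14, adjusted p = 0.32) or the median over probe sets (adjusted p = 0.2), and the call against vehicle alone was lost without any 1 of 12 arrays.

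Ebp, the sterol isomerase, had a change of -0.37 ± 0.11 (adjusted p = 0.053) with talc against vehicle and did not pass. Ebp had log2 intensities of 7.05, 6.76 and 6.84 with talc, against 7.30, 7.24 and 7.22 with vehicle. Ebp stood at 7.32, 7.06 and 7.23 with talc plus estradiol, against 7.05, 7.17 and 7.11 with estradiol. Ebp stood at 6.95, 7.31 and 7.29 with TiO2 plus estradiol, against 7.30, 7.22 and 7.40 with TiO2. The talc arrays lay below vehicle, and those of talc plus estradiol overlapped estradiol. Dhcr7, the last reductase to cholesterol, did not pass, with -0.28 ± 0.14 (adjusted p = 0.27) and -0.29 ± 0.14 (adjusted p = 0.26) and all talc arrays lower in both arms. Sqle, the squalene epoxidase that limits the later pathway, gave 0.01 ± 0.10 (adjusted p = 0.98) and 0.04 ± 0.10 (adjusted p = 0.9); its 95% interval against vehicle was -0.20 to 0.22. Lss, Cyp51, Msmo1, Hsd17b7 and Sc5d passed in no comparison, with changes from -0.21 to 0.07 against vehicle.

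**Figure D2:**
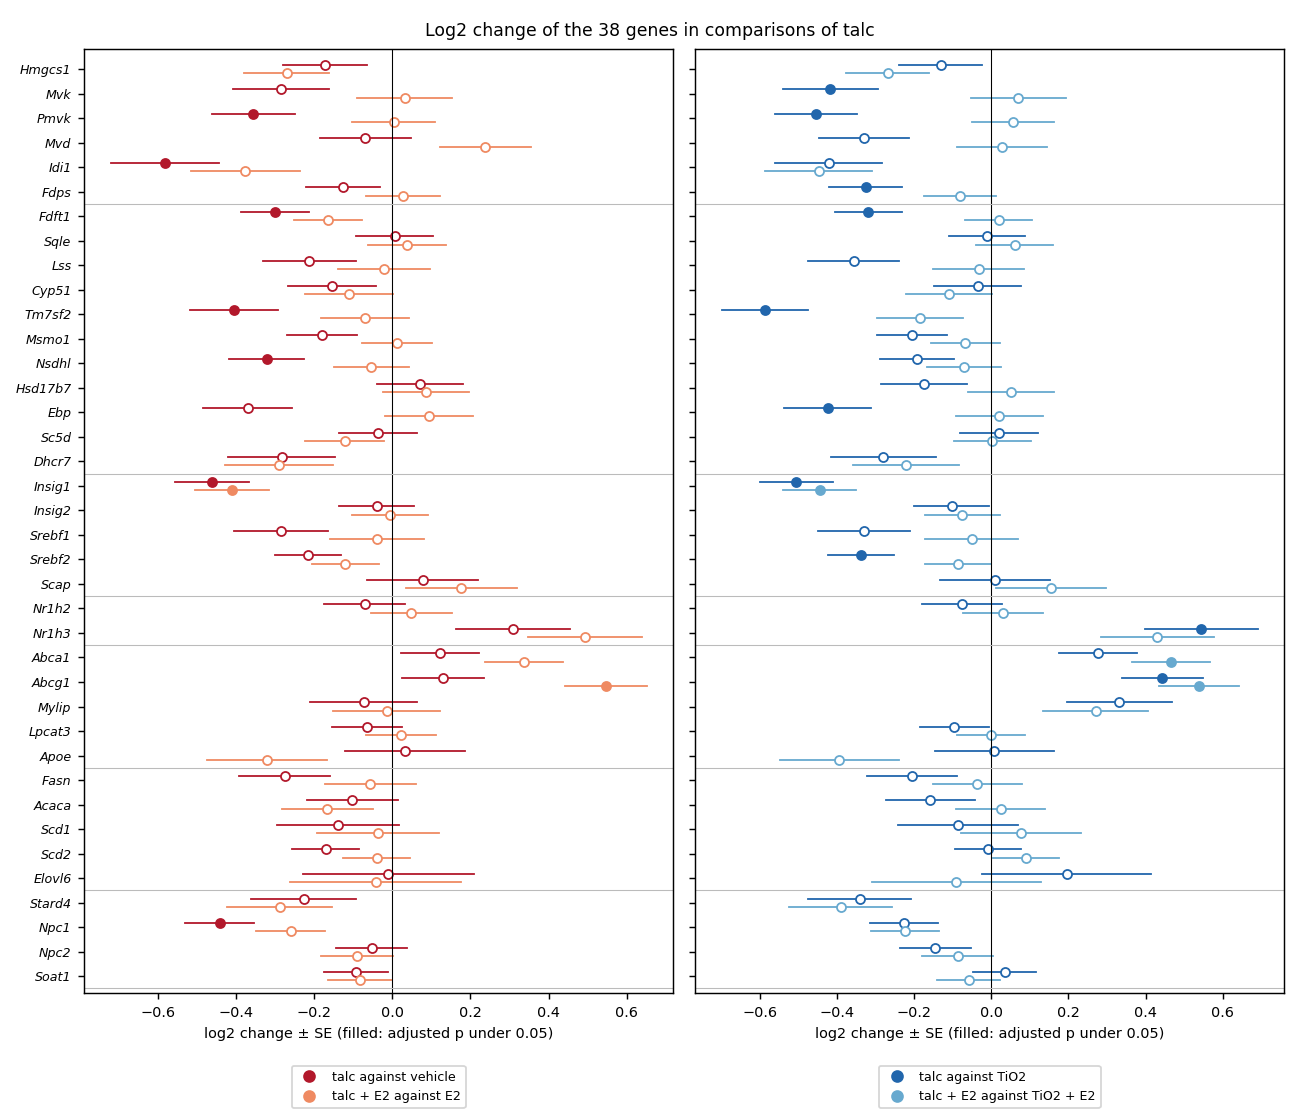
Log2 change ± SE of each of the 38 genes with talc, on the left against the control without particles and on the right against TiO2, with lines between roles and filled points at an adjusted p under 0.05. Of the 17 enzymes 15 lie left of 0 against vehicle, and 11 are closer to 0 in the estradiol arm (E2). Over all 23102 genes, 11725 are closer to 0 in that arm.

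Over the 17 enzymes, 5 fell and 0 rose with talc against vehicle, with a median change of -0.21 where the median of all genes was 0.02. In the estradiol arm 0 passed and the median was -0.02. Against vehicle 7 of the 38 passed (18.4%), and 8.46% of all genes did. The share over all genes is not matched for level, and 36 of the 38 lay above the median level of all genes. With the brightest probe set of each gene 3 of the 38 passed (Idi1, Tm7sf2 and Insig1), with the median over probe sets 4 (Idi1, Dhcr7, Nr1h3 and Npc1), and with only the arrays compared 2, Insig1 and Npc1. A change below 0 was found for 31 of the 38 and for 46.7% of all genes. Arrays did not overlap for 18 of the 38 genes on the lower side and 1 on the higher, where the shares over all genes were 12.6% and 13.6%. In the estradiol arm 7.13% of all genes passed, 4.13% higher and 3% lower, and 2 of the 38 passed, a share close to that background. There 8 genes were lower without overlap (12% of all genes) and 4 higher (14.2%).

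For the mean of both arms, 3 of the 38 rose and 4 fell, 18.4% together, against 14.8% of all genes (7.92% higher, 6.87% lower). The change lay below 0 in both arms for 23 of the 38, against 29.7% of all genes, above 0 in both for 6 and opposite in 9. The 2 arms use separate controls.

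Insig1 gave the smallest p of the 38 genes in the mean of both arms. It encodes the anchor that keeps Scap in the endoplasmic reticulum. Insig1 had log2 intensities of 10.51, 10.59 and 10.51 with talc, against 11.02, 10.95 and 11.02 with vehicle. Insig1 stood at 10.61, 10.64 and 10.60 with talc plus estradiol, against 11.01, 10.99 and 11.08 with estradiol. The groups stood well apart in each arm, and every talc array was below every array without talc. Insig1 stood at 11.09, 10.99 and 11.11 with TiO2 plus estradiol, against 11.15, 10.83 and 11.15 with TiO2. With TiO2, too, no array was below 10.83. Insig1 changed by -0.46 ± 0.09 (adjusted p = 0.0048) against vehicle and -0.41 ± 0.09 (adjusted p = 0.013) against estradiol, and the mean of both was -0.43 ± 0.07 (adjusted p = 0.00021), or 74.0% of the control level. All 6 probe sets were lower against vehicle, and that call held with each array left out (adjusted p up to 0.026) but not with the median over probe sets (adjusted p = 0.059). The call in the estradiol arm was lost without talc plus estradiol replicate 3 (adjusted p = 0.055) or estradiol replicate 3 (adjusted p = 0.051), with the brightest probe set alone (adjusted p = 0.34) and with only the arrays compared (adjusted p = 0.054).

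Among the other SREBP genes, none passed with talc against either control. Srebf2, which drives mainly cholesterol genes, had a change of -0.21 ± 0.09 (adjusted p = 0.15) against vehicle and -0.12 ± 0.09 (adjusted p = 0.5) in the estradiol arm. Srebf2 had log2 intensities of 10.57, 10.66 and 10.62 with talc, against 10.81, 10.86 and 10.83 with vehicle. Srebf2 stood at 10.84, 10.64 and 10.77 with talc plus estradiol, against 10.83, 10.93 and 10.85 with estradiol. Srebf2 stood at 10.89, 10.77 and 10.85 with TiO2 plus estradiol, against 10.93, 11.01 and 10.93 with TiO2. It lay lower with talc without overlap in the first pair only. Srebf1, which drives mainly fatty acid genes, gave -0.28 ± 0.12 (adjusted p = 0.18) and -0.04 ± 0.12 (adjusted p = 0.92). Scap gave 0.08 ± 0.14 (adjusted p = 0.84) and Insig2 -0.04 ± 0.10 (adjusted p = 0.89) against vehicle.

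On the LXR side, Nr1h3, Abcg1 and Abca1 rose in the mean of both arms. A further list of LXR targets and partners, counted apart from the main list, went the other way. Of its 6 measured genes, 0 rose and 3 fell in the mean of both arms, with changes from -0.51 to 0.21. In the estradiol arm 0 of these 6 rose and 1 fell with talc. Nr1h3 encodes the LXR that is enriched in macrophages, liver and fat. Nr1h3 had log2 intensities of 5.63, 5.83 and 6.03 with talc, against 5.48, 5.33 and 5.75 with vehicle. Nr1h3 stood at 5.90, 6.02 and 6.02 with talc plus estradiol, against 5.79, 5.24 and 5.44 with estradiol. Nr1h3 stood at 5.64, 5.62 and 5.40 with TiO2 plus estradiol, against 5.29, 5.18 and 5.38 with TiO2. Nr1h3 was dim, at 5.18 to 6.03 over all arrays, where the epithelial marker Krt8 ran from 5.03 to 5.90. Talc overlapped vehicle, and talc plus estradiol lay above estradiol. The change of Nr1h3 was 0.31 ± 0.15 (adjusted p = 0.25) against vehicle, 0.49 ± 0.15 (adjusted p = 0.051) against estradiol and 0.40 ± 0.10 (adjusted p = 0.013) for the mean of both. Of its 14 probe sets 11 were higher and 3 lower, and the brightest probe set alone gave -0.27 in that mean, so the direction depends on which probe sets are read. Nr1h2, the LXR present in most cells, did not pass, with -0.07 ± 0.10 (adjusted p = 0.8) and 0.05 ± 0.10 (adjusted p = 0.87).

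Abcg1, which hands cholesterol to lipoprotein particles, rose in the estradiol arm. Abcg1 had log2 intensities of 9.88, 9.85 and 10.06 with talc, against 9.77, 9.81 and 9.83 with vehicle. Abcg1 stood at 10.07, 9.93 and 10.15 with talc plus estradiol, against 9.45, 9.42 and 9.63 with estradiol. Abcg1 stood at 9.50, 9.47 and 9.56 with TiO2 plus estradiol, against 9.30, 9.53 and 9.63 with TiO2. The talc arrays were the highest, vehicle came between, and the TiO2 and estradiol groups were lowest. The change with talc was 0.13 ± 0.10 (adjusted p = 0.57) against vehicle and 0.55 ± 0.10 (adjusted p = 0.0038) against estradiol, while estradiol alone against vehicle gave -0.30 ± 0.10 (adjusted p = 0.98) and TiO2 against vehicle -0.31 ± 0.10 (adjusted p = 0.47). The difference between the 2 talc changes was 0.42 ± 0.15 (adjusted p = 0.67), and the mean of both was 0.34 ± 0.07 (adjusted p = 0.004). The call in the estradiol arm held with each array left out. With the median over probe sets neither that call (adjusted p = 0.086) nor the mean of both (adjusted p = 0.16) passed.

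Abca1, which loads cholesterol onto apolipoproteins, rose in the mean of both arms by 0.23 ± 0.07 (adjusted p = 0.037). Abca1 had log2 intensities of 8.44, 8.31 and 8.21 with talc, against 8.15, 8.17 and 8.28 with vehicle. Abca1 stood at 8.34, 8.34 and 8.33 with talc plus estradiol, against 8.12, 7.86 and 8.02 with estradiol. Abca1 stood at 7.97, 7.93 and 7.71 with TiO2 plus estradiol, against 8.04, 8.01 and 8.08 with TiO2. Talc overlapped vehicle, while talc plus estradiol lay above all estradiol arrays. The call was lost without any 1 of 9 of the 18 arrays (adjusted p up to 0.11), and with the brightest probe set or the median over probe sets (adjusted p = 0.15 for each). Mylip, Lpcat3 and Apoe passed in no comparison. Mylip, which tags the LDL receptor for breakdown, gave -0.07 ± 0.14 (adjusted p = 0.85) and -0.01 ± 0.14 (adjusted p = 0.97). Lpcat3, a phospholipid remodelling enzyme, gave -0.06 ± 0.09 (adjusted p = 0.79) and 0.02 ± 0.09 (adjusted p = 0.94). Apoe, an apolipoprotein, gave 0.03 ± 0.15 (adjusted p = 0.95) and -0.32 ± 0.15 (adjusted p = 0.27). Like Nr1h3 it was dim, at 5.01 to 5.78 over all arrays.

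**Figure D3:**
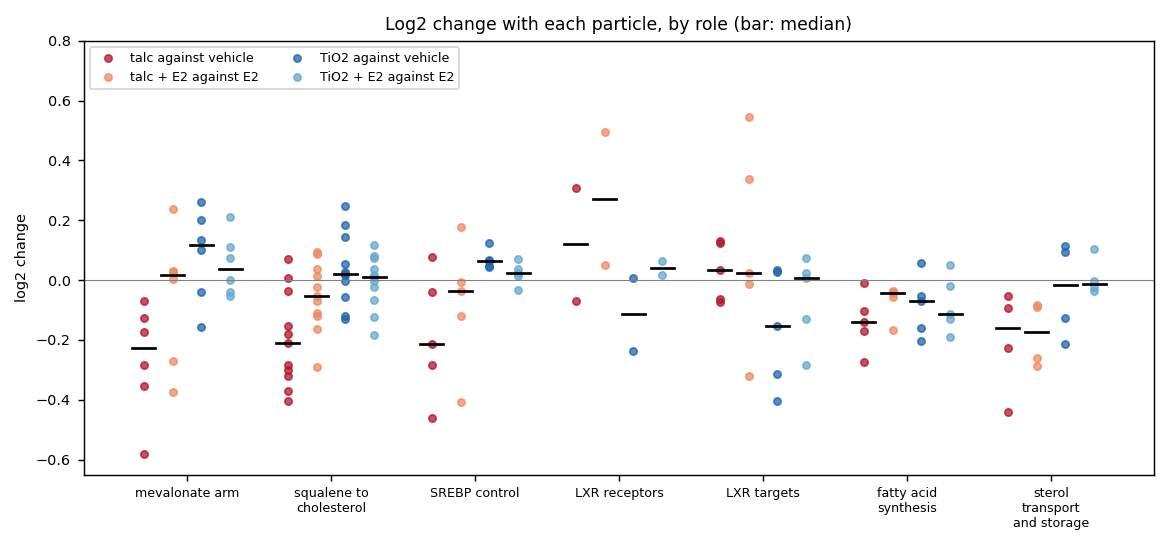
Log2 change with talc or with TiO2, each against its own control in the presence or absence of estradiol, by role. Points are genes, bars medians, and E2 is estradiol; the 17 sterol synthesis enzymes have a median of -0.21 with talc against vehicle and 0.03 with TiO2 against vehicle.

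In fatty acid synthesis, all 5 genes had changes below 0 with talc in both arms, and 0 passed. Fasn, the fatty acid synthase, had the smallest p for talc among them. Fasn had log2 intensities of 9.60, 9.67 and 9.68 with talc, against 9.78, 9.92 and 10.07 with vehicle. Fasn stood at 9.86, 9.62 and 9.84 with talc plus estradiol, against 9.99, 9.78 and 9.72 with estradiol. Fasn stood at 9.82, 9.74 and 9.88 with TiO2 plus estradiol, against 9.67, 10.03 and 9.86 with TiO2. Its talc arrays lay below vehicle, and with estradiol the groups overlapped. The change was -0.27 ± 0.12 (adjusted p = 0.18) against vehicle and -0.06 ± 0.12 (adjusted p = 0.87) against estradiol, with 39 of 40 probe sets lower in the first. The desaturase gene Scd2 gave -0.17 ± 0.09 (adjusted p = 0.29) and -0.04 ± 0.09 (adjusted p = 0.87), and the carboxylase gene Acaca -0.10 ± 0.12 (adjusted p = 0.73) and -0.17 ± 0.12 (adjusted p = 0.5). Scd1, a desaturase, and Elovl6, an elongase, were dim throughout, with array values of 2.67 to 3.52 and 3.27 to 4.28.

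Among genes of sterol transport and storage, Npc1 fell. It encodes the membrane protein that moves cholesterol out of lysosomes. Npc1 had log2 intensities of 8.77, 8.81 and 8.82 with talc, against 9.32, 9.19 and 9.23 with vehicle. Npc1 stood at 8.92, 8.84 and 8.77 with talc plus estradiol, against 9.15, 9.10 and 9.06 with estradiol. Npc1 stood at 9.12, 9.11 and 8.98 with TiO2 plus estradiol, against 8.92, 9.06 and 9.10 with TiO2. Talc arrays were lower in both arms, and the TiO2 arrays too lay below vehicle. The change of Npc1 was -0.44 ± 0.09 (adjusted p = 0.004) against vehicle, -0.26 ± 0.09 (adjusted p = 0.094) against estradiol, and -0.35 ± 0.06 (adjusted p = 0.00078) for the mean of both; the call against vehicle held with each array left out (adjusted p up to 0.023). With the brightest probe set alone the change was -0.25 against vehicle (adjusted p = 0.35), and the mean of both did not pass (adjusted p = 0.064). Stard4, a sterol carrier of the cytosol, did not pass, with -0.23 ± 0.13 (adjusted p = 0.39) and -0.29 ± 0.13 (adjusted p = 0.25). Npc2, the soluble partner of Npc1, gave -0.05 ± 0.09 (adjusted p = 0.84) against vehicle, and Soat1, which esterifies cholesterol for storage, -0.09 ± 0.08 (adjusted p = 0.62).

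TiO2 served as the other particle. Against vehicle 0 of the 38 and 0 of all genes passed in limma; an unadjusted p under 0.05 was found for 6 of the 38 and for 1886 of all genes. The smallest adjusted p was 0.47, for Abcg1, and the 95% intervals of 33 genes lay within 0.5 log2 units of 0. TiO2 plus estradiol against estradiol gave 0 of the 38, 0 of them at an unadjusted p under 0.05, where 0.00433% of all genes passed. The smallest adjusted p was 0.56, for Fdft1, and 36 intervals lay within 0.5 units.

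Talc was also set against TiO2, which shares the talc arrays with the comparison above. Of the 38, 8 fell and 2 rose, where 9.96% of all genes passed (4.61% higher, 5.35% lower). Arrays did not overlap for 18 genes on the lower side and 4 on the higher, against 12.2% and 14.2% of all genes. Tm7sf2, Insig1, Pmvk and Fdft1 were among the 8, at -0.59 ± 0.11 (adjusted p = 0.0026), -0.51 ± 0.09 (adjusted p = 0.0022), -0.46 ± 0.11 (adjusted p = 0.011) and -0.32 ± 0.09 (adjusted p = 0.027). The other 3 genes that fell against vehicle did not pass against TiO2, with -0.42 ± 0.14 (adjusted p = 0.066) for Idi1, -0.19 ± 0.10 (adjusted p = 0.25) for Nsdhl and -0.23 ± 0.09 (adjusted p = 0.12) for Npc1. The remaining 4 of the 8, Ebp, Mvk, Fdps and Srebf2, had not passed against vehicle. Mvk stood at 6.71, 6.79 and 6.85 with talc, against 7.09, 7.37 and 7.15 with TiO2. Mvk stood at 7.07, 6.79 and 6.95 with talc plus estradiol, against 6.89, 6.88 and 6.82 with TiO2 plus estradiol. Mvk stood at 6.73, 7.01 and 6.97 with estradiol, against 6.84, 7.10 and 7.27 with vehicle. Mvk was lower on the talc than on the TiO2 arrays, and the groups with both a particle and estradiol overlapped. Fdps stood at 10.76, 10.79 and 10.64 with talc, against 10.97, 11.11 and 11.08 with TiO2. Fdps stood at 10.95, 10.87 and 10.87 with talc plus estradiol, against 10.89, 10.91 and 11.13 with TiO2 plus estradiol. Fdps stood at 10.88, 10.87 and 10.86 with estradiol, against 10.75, 10.86 and 10.95 with vehicle. For Fdps, as for Ebp and Srebf2, all talc arrays lay below the TiO2 arrays. The changes were -0.42 ± 0.11 (adjusted p = 0.024) for Ebp, -0.42 ± 0.12 (adjusted p = 0.04) for Mvk, -0.33 ± 0.09 (adjusted p = 0.036) for Fdps and -0.34 ± 0.09 (adjusted p = 0.017) for Srebf2. Single arrays left out in turn ended the call in 4 of 18 cases for Ebp, 7 for Mvk, 5 for Fdps, 3 for Srebf2 and 4 for Fdft1. Mvk, Pmvk, Fdps, Fdft1 and Srebf2 also failed to pass with the brightest probe set, with the median over probe sets and with only the arrays compared. Read from the brightest probe set, the changes were -0.25 for Mvk, -0.27 for Pmvk, -0.19 for Fdps, -0.16 for Fdft1 and -0.23 for Srebf2. With only the arrays compared, Tm7sf2 alone passed, and Ebp (adjusted p = 0.1) and Insig1 (adjusted p = 0.065) did not.

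The 2 that rose against TiO2 were Nr1h3 and Abcg1. The talc and TiO2 arrays of Nr1h3 did not overlap, and the change was 0.55 ± 0.15 (adjusted p = 0.024), although the brightest probe set alone gave -0.17. Abcg1 changed by 0.44 ± 0.10 (adjusted p = 0.011). Without talc replicate 3 the count against TiO2 was 3, and Nr1h3 and Abcg1 did not pass (adjusted p = 0.12 and 0.068). Neither passed with only the arrays compared (adjusted p = 0.062 and 0.1). Nr1h3 was also lost with array medians subtracted (adjusted p = 0.05) and Abcg1 with the median over probe sets (adjusted p = 0.14).

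With estradiol present on both sides, talc against TiO2 gave 2 rises and 1 fall among the 38, where 9.53% of all genes passed (6.66% higher, 2.87% lower). Non-overlapping arrays were found for 9 genes on the lower side (11.5% of all genes) and 3 on the higher (16.3%). The changes were -0.45 ± 0.09 (adjusted p = 0.0067) for Insig1, 0.47 ± 0.10 (adjusted p = 0.0074) for Abca1 and 0.54 ± 0.10 (adjusted p = 0.0038) for Abcg1, and the arrays of these genes did not overlap between the groups. Each call held with single arrays left out. With the brightest probe set none of these 3 genes passed, although at least 1 of the 38 passed under each alternative. Their changes were then -0.22 for Insig1 (adjusted p = 0.35), 0.32 for Abca1 (adjusted p = 0.17) and 0.35 for Abcg1 (adjusted p = 0.064). With only the arrays compared, Insig1 (adjusted p = 0.06) and Abca1 (adjusted p = 0.068) did not pass, and Abca1 did not with the median over probe sets (adjusted p = 0.21).

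For estradiol, 0 of the 38 passed in any comparison in limma. Of all genes 0 passed for estradiol against vehicle, 0 for talc plus estradiol against talc, 0.00866% for TiO2 plus estradiol against TiO2, and 0 for the mean over 3 arms. The number of the 38 at an unadjusted p under 0.05 was 1, 3, 2 and 2 in that order. Of all 23102 genes it was 1124, 1521, 3012 and 1288. The smallest adjusted p was 0.98 for estradiol against vehicle, 0.71 for talc plus estradiol against talc, 0.27 for TiO2 plus estradiol against TiO2 and 0.89 for their mean. That mean's smallest p belonged to Scd1, at -0.22 ± 0.09 (adjusted p = 0.89). Scd1 stood at 2.96, 2.71 and 3.10 with talc plus estradiol, against 3.08, 2.86 and 3.24 with talc. Scd1 stood at 3.05, 2.82 and 2.67 with TiO2 plus estradiol, against 3.07, 3.22 and 3.15 with TiO2. Scd1 stood at 2.84, 3.07 and 2.97 with estradiol, against 3.52, 3.19 and 2.89 with vehicle. TiO2 plus estradiol arrays lay below TiO2 arrays, and the other pairs overlapped. In that mean all 38 of the 95% intervals lay within 0.5 log2 units of 0. Added to talc, estradiol gave changes above 0 for 28 of the 38 and a median of 0.08, where all genes had a median of 0.00. The talc arrays here are those also compared with vehicle, so the 2 comparisons are not independent. Arrays with talc plus estradiol were all above those with talc alone for 10 genes, among them 7 enzymes, and below for 0; of all genes 7.46% were higher and 7.11% lower in that way.

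**Figure D4:**
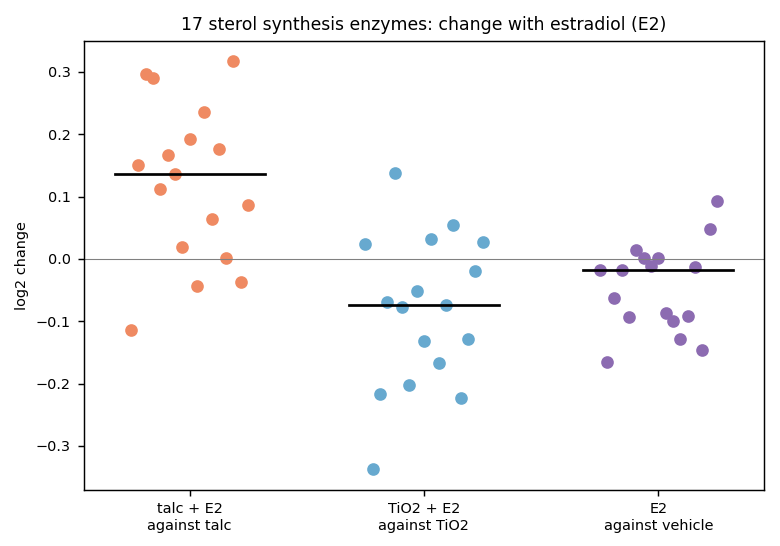
Log2 change of each of the 17 sterol synthesis enzymes with estradiol (E2), in cells given talc, given TiO2 or given no particle. Points are genes and bars medians, which stand at 0.14 with talc, -0.07 with TiO2 and -0.02 without particles.

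Whether talc acted differently with estradiol was tested as the difference between the arms. It passed for 0 of the 38 and 0 of all genes in limma, with 4 of the 38 and 1460 of all genes at an unadjusted p under 0.05. Ebp had the smallest adjusted p, with 0.46 ± 0.16 (adjusted p = 0.65) and a 95% interval of 0.13 to 0.80. The fall of 5 enzymes in the arm without estradiol and 0 in the other is therefore not shown to differ. For 11 of the 17 enzymes the talc change was closer to 0 with estradiol, as it was for 11725 of all 23102 genes. The intervals of 21 of the 38 differences lay within 0.5 log2 units. The same test for TiO2 passed for 0 of the 38, with the smallest adjusted p at 0.61 for Abcg1.

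Of 38 further pathway genes that were measured, 2 rose and 8 fell with talc against vehicle, where 8.46% of all genes passed (3.94% higher, 4.52% lower). Of the 8, 4 belong to fatty acid synthesis, and not all of these are named below. Cyp27a1, the mitochondrial enzyme that makes an oxysterol from cholesterol, changed by -0.73 ± 0.12 (adjusted p = 0.0007) against vehicle and -0.43 ± 0.12 (adjusted p = 0.037) in the estradiol arm. Mbtps1, the protease that makes the first cut in SREBP, changed by -0.44 ± 0.10 (adjusted p = 0.011), and Rxra, the partner of LXR on DNA, by -0.42 ± 0.12 (adjusted p = 0.031). The fatty acid desaturases Fads2 and Fads1 fell, with changes of -0.50 ± 0.10 (adjusted p = 0.0038) and -0.34 ± 0.10 (adjusted p = 0.043), and the elongase Elovl1 rose by 0.53 ± 0.11 (adjusted p = 0.0047). The scavenger receptor Msr1 rose by 0.49 ± 0.11 (adjusted p = 0.0096), and Lrp1, an endocytic receptor, changed by -0.55 ± 0.16 (adjusted p = 0.047). In the estradiol arm, 1 rose and 3 fell of the 38, a share close to the 7.13% of all genes that passed. There 1 of the further fatty acid synthesis genes rose and 0 fell, and 0 of the further sterol handling genes, which include Msr1 and Lrp1, passed. In the mean of both arms, 4 of the 38 further genes rose and 11 fell. That was 39.5% together, where 14.8% of all genes passed (7.92% higher, 6.87% lower).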

How the data were processed

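Total RNA of J774 cells was measured on 18 arrays. The authors deposited a linear intensity per probe set and array; RMA is the tool per the submitters' processing notes, with version, level of summary and return from the log2 scale not given in the sources used here. Log2 of the deposited intensities was taken here. Each gene took the average log2 intensity over probe sets matched to it alone, 233753 of 269751, with symbols updated through RefSeq synonyms; 5106 probe sets with several symbols and 30892 with none were left out. Opposite movements of probe sets within a gene are averaged out. No gene was filtered out. Precision is limited by the number of arrays: between groups of 3, the standard error had a median of 0.151 log2 units.

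The software was R 4.3.3, limma 3.58.1 and, for reading, the package data.table (version 1.17.8). One mean per group was fitted in limma, with 12 residual and 4.57 prior degrees of freedom, and 13 contrasts were tested, two-sided. The fit was tested on simulated data. The mean of both arms averages talc against vehicle and talc plus estradiol against estradiol. All 38 members are named, with the value of every array for those that passed a contrast and for the smallest p of each role; further pathway genes are counted and named only where they passed. Members and lists were chosen with earlier results of these data known. Alternatives were the brightest or median probe set, keeping only genes above the median level, quantile or array-median scaling, a robust intensity-trend prior, weighting of arrays, fitting the compared arrays alone, and dropping every array in turn.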

Additional observations from a re-analysis of the deposited data

How the results depend on the processing

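Of 754 repeated gene changes under the alternatives, 613 kept their direction and side of the threshold, 139 kept only the direction, and 2 reversed. Both reversals were Nr1h3 read from its brightest probe set, at -0.27 in the mean of both arms (0.40 otherwise) and -0.17 against TiO2 (0.55 otherwise). For talc against vehicle, 7 of the 38 genes passed, against 3 with the brightest probe set, 4 with the median over probe sets and 2 with only the arrays compared, which leaves fewer arrays for the spread. Leaving out single arrays gave 3 to 7: 3 without any 1 talc or vehicle array, and 4 without any 1 array of talc plus estradiol or without estradiol replicate 1 or 2. For talc plus estradiol against estradiol, 2 passed (1 higher, 1 lower), against 1 with the brightest probe set, 1 with the median, 6 among genes above the median level, 4 with array medians subtracted (3 higher, 1 lower), 3 with quantile normalization (2 higher, 1 lower), 6 with the intensity trend, 5 with array weights and 1 with only the arrays compared. Single arrays left out gave 1 to 4, with 1 without replicate 3 of talc plus estradiol or of estradiol and 4 without TiO2 plus estradiol replicate 3. For the mean of both talc arms, 7 passed (3 higher, 4 lower), against 13 among genes above the median level, 11 with quantile normalization (3 higher, 8 lower), 13 with the trend and 12 with array weights, and 6 to 9 without single arrays. For talc against TiO2, 10 passed, against 4 with the brightest probe set, 4 with the median, 16 among genes above the median level and 1 with only the arrays compared. Single arrays left out gave 3 to 11: 3 without talc replicate 3, 5 without TiO2 replicate 2, and 6 without TiO2 replicate 3, talc replicate 1 or talc replicate 2. For talc plus estradiol against TiO2 plus estradiol, 3 passed (2 higher, 1 lower), against 7 among genes above the median level, 6 with quantile normalization (2 higher, 4 lower), 4 with array medians subtracted (3 higher, 1 lower), 6 with the trend and 1 with only the arrays compared, and 3 to 4 without single arrays. The other 8 contrasts gave 0 of the 38 under each alternative run. The filter kept 36 of the 38 genes and left out Scd1 and Elovl6. A fit of only the arrays compared was not run for the estradiol mean, which uses all arrays. The causes of these shifts were not tested. No paired analysis was possible because array numbers in the labels do not repeat between groups and nothing else links an array to another.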
